A study of Homo sapiens with 32 samples.

Results

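TLOm1 is an adult T-cell leukemia line, and the 8 libraries made from it, of 32 libraries from 4 human T-cell lines, show what azacitidine did to its messenger RNA. The cells grew in log phase for 96 hours with no drug, with 1 nM romidepsin, with azacitidine at 125, 250 or 500 nM, or with 1 nM romidepsin and azacitidine at 125, 250 or 500 nM. Azacitidine was renewed every 24 hours, and romidepsin was given only at time 0. The 6 libraries with azacitidine were chosen by their labels and set against the 2 without it (untreated, and romidepsin alone), each matched on romidepsin being given or not. All 25559 gene symbols of the raw count tables entered, and 17801 had enough counts to be tested. The labels state no unit for the doses of the combinations, and nM was assumed. Each condition is 1 library, so p-values measure only the spread between these libraries, pooled over the 4 lines, and not the spread between cultures. In the test over all doses, differences between the doses are part of that spread. A gene that changed mainly at the highest dose could therefore fail it.

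Azacitidine is a cytidine analogue that is phosphorylated in the cell and built into RNA and, after reduction, into DNA. In DNA it traps DNA methyltransferase 1, the enzyme that copies CpG methylation to the new strand, so that methylation is diluted as cells divide. Genes known to be kept silent by promoter methylation, cancer testis antigens above all, are its classic targets, and transcripts of endogenous retroviruses induced by such drugs are known to set off interferon-stimulated genes. Romidepsin inhibits histone deacetylases. Adult T-cell leukemia is a disease of mature CD4+ T cells that are driven by a human T-lymphotropic virus and often resemble regulatory T cells.

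Of the T-cell and adult T-cell leukemia markers looked at, some were present in all 8 libraries and others were nearly absent. CD4 lay between 676 and 1072 CPM (counts relative to the scaled library total). CADM1, an adhesion molecule used as a marker of adult T-cell leukemia, lay between 259 and 393 CPM, and CCR4, the chemokine receptor typical of the disease, between 60.3 and 128 CPM. CD7 did not exceed 2.51 CPM, and FOXP3, the master factor of regulatory T cells, stayed between 0.811 and 1.33 CPM. Averaged over the 8 libraries, CD2 was at 227 CPM, IL2RA at 283 CPM and CD3E at 39.2 CPM. The averages of CD3D, CD3G, CD5 and CD8A were only 0.256, 0.102, 1.645 and 0.21 CPM. CD3D and CD5 also changed with azacitidine, as given below. Total counts ran from 19303768 (500 nM with romidepsin) to 25957140 (125 nM with romidepsin), and 3 counts were worth 0.121 to 0.154 CPM. The number of symbols with a count rose from 17596 in untreated cells to 19743 at 500 nM with romidepsin.

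Low-level reads of genes that mark PF382, the T-cell acute lymphoblastic leukemia line of the series, were spread differently over the libraries without and with azacitidine. Over 39 genes that were at 50 CPM or more in untreated PF382, under 1 CPM in untreated HH and H9 (both cutaneous T-cell lymphoma lines) and under 10 CPM in every TLOm1 library, the median level was 0.220% of the PF382 level in untreated TLOm1 and 0.225% in romidepsin alone. It was between 0% and 0.144% in the 6 libraries with azacitidine, where 11 to 23 of the 39 genes had no count, against 2 and 1 without. The summed level of the 39 did not separate the groups: it was 0.238% and 0.276% of PF382 without azacitidine and 0.106% to 0.321% with it, highest in both libraries at 500 nM. For 17 HH markers chosen in the same way the medians were 0.172% and 0.267% without azacitidine and 0.394% to 1.35% with it, and for 14 H9 markers they were 0.0233% and 0.0121% without and 0.0425% to 0.479% with it. The source of these reads was not tested.

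**Figure D1:**
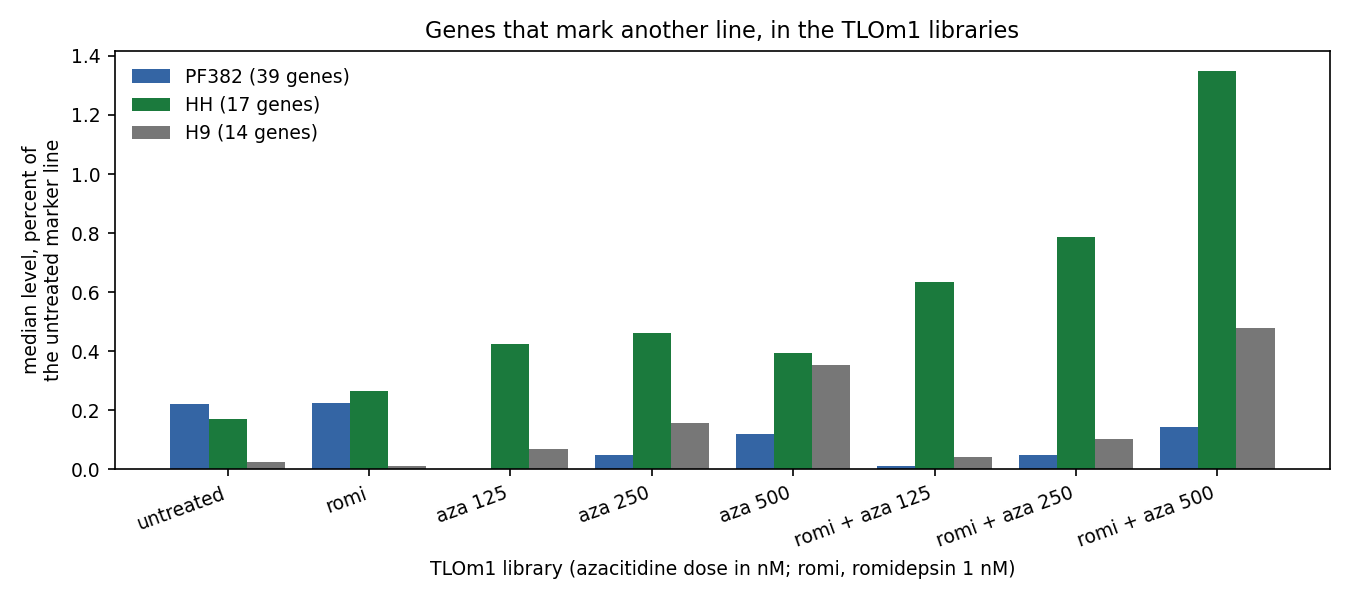
Median level of 39 PF382, 17 HH and 14 H9 marker genes in each of the 8 TLOm1 libraries, as a percent of the level in the untreated marker line. The 2 libraries without azacitidine hold the highest PF382 medians (0.220% and 0.225%) and the lowest HH and H9 medians.

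Azacitidine raised more genes than it lowered, and by larger factors. Of the 17801 genes tested, 1961 were higher with azacitidine (11.0%) and 1368 were lower (7.68%) at an adjusted p under 0.05 (edgeR quasi-likelihood F test, Benjamini-Hochberg). The counts called over all doses in each gene list below are to be read beside these shares. At least a 2-fold change was fitted for 1051 of the genes called higher and for 95 of those called lower, while the median over all genes tested was 0.03 on the log2 scale. The 6 libraries with azacitidine all lay above both without it for 1526 of the 1961 genes called higher (77.8%) and for 12.9% of all genes tested. They all lay below for 1084 of the 1368 called lower (79.2%) and for 11.4% of all genes tested. The counts rest on the 2 libraries without azacitidine: without romidepsin alone 182 genes were called higher and 75 lower, and without the untreated library 903 and 567.

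Cancer testis antigens of the X chromosome, proteins normally made in male germ cells, were among the genes with the largest rises. Of 118 such genes in the tables, 93 had no count in either library without azacitidine, and 36 had none in any of the 8 libraries. Promoter windows from 250 bases before to 50 bases after the start are shown for SSX1, MAGEC1 and the autosomal germline gene MAEL, as examples of genes with 0 or 1 count without azacitidine that rose with it; capitals mark CpG dinucleotides, the sites that DNA methyltransferases act on. The windows are from RefSeq on GRCh38.p14, not from the build of the count tables.
SSX1, chrX:48255142-48255441, plus strand: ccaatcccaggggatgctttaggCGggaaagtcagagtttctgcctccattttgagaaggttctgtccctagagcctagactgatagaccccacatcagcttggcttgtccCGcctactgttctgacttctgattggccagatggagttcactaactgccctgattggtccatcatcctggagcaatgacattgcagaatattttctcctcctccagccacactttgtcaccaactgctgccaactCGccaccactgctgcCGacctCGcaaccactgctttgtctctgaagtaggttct
MAGEC1, chrX:141903644-141903943, plus strand: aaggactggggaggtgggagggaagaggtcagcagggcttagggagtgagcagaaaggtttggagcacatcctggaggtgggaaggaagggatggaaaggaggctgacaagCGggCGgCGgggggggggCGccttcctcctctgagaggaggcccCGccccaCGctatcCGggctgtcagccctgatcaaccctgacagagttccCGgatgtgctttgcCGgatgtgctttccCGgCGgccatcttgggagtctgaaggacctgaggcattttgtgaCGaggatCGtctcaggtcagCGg
MAEL, the second of 2 starts, chr1:166989030-166989329, plus strand: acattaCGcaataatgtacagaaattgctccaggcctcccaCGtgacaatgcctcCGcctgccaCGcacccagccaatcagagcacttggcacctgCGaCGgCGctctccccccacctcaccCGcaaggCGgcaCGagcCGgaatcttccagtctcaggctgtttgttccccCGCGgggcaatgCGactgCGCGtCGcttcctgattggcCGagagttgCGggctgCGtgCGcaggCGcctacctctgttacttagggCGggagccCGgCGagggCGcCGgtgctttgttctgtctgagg
The windows shown hold 5, 14 and 27 CpG dinucleotides in that order. The first MAEL start, not shown, holds 60, and which start was used in TLOm1 was not tested. Among the 35116 windows of the same length in the table, 96.0% hold at least 1, and the median is 14. Methylation was not measured in these libraries.

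SSX1 had 0 counts in untreated cells and in romidepsin alone. It stood at 3.88, 20.7 and 43.5 CPM with azacitidine at 125, 250 and 500 nM, and at 3.06, 13.2 and 21.0 CPM at the same doses with romidepsin. Every library with azacitidine was above both without, the level rose at each dose step, and at each dose it was lower where romidepsin was present. Against a floor of 3 counts over the 2 libraries without azacitidine, SSX1 was at least 256-fold higher (adjusted p = 0.0232).

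MAGEC1, another X-linked antigen, had 0 counts without azacitidine and 1.46, 10.2 and 29.2 CPM with the rising doses alone. With romidepsin it stood at 0.523, 2.58 and 8.35 CPM. The pattern was that of SSX1, and the level was at least 129-fold higher (adjusted p = 0.0323). SSX3 (at least 135-fold), MAGEA1 (107-fold), MAGEB1 (82.7-fold), MAGEA12 (76.5-fold) and CTAG2 (35.3-fold), which had no count without azacitidine, passed the same test, with these folds as lower bounds. MAGEA10 had 2 counts without and 603 with azacitidine. SSX and MAGEA genes have close copies, so counts may be split among them, while CTAG1B had no count in any TLOm1 library.

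Over the list, 50 of 118 antigens passed the filter on low counts, which took the libraries of all 4 lines. A gene silent in TLOm1 without the drug could pass only through TLOm1 libraries with it or through other lines. Of those 50, 18 were called higher (36.0%) and 0 lower, beside 11.0% and 7.68% of all genes tested. With no filter on low counts, 8 of 85 were called higher, beside 1684 of 23016 genes. The fitted median of the 50 was 6.49, a value that depends on the prior count. The summed level of the 50 was between 74.4 and 83.5 CPM without and between 96.0 and 442 CPM with azacitidine. MAGEB2 alone averaged 79.4 CPM over the 8 libraries and was not called (0.02 ± 0.74). Only 2 of the 118 had at least 10 counts over the 2 libraries without azacitidine. The calls rest on single libraries. None of the 50 was called without the untreated library or without romidepsin alone, 8 without azacitidine 500 nM and 7 without the combination at 500 nM, and in the fit of the 8 TLOm1 libraries alone 2 were called.

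Among autosomal germline genes 5 of 54 tested were called higher (9.3%), near the 11.0% of all genes tested, and 1 lower, with a median of 0.81. MAEL, a factor of the pathway that silences transposons in the germline, had 1 count in untreated cells and none in romidepsin alone. It stood at 1.59, 16.6 and 63.6 CPM with azacitidine alone and at 0.966, 7.79 and 25.2 CPM with romidepsin. All 6 libraries were above both without, by a ratio of 845 (95% counting interval 151.5 to 33390; adjusted p = 0.0264), and the call was lost without either library lacking azacitidine or without the combination at 500 nM. SOHLH1, a germ cell transcription factor, had 0 counts without azacitidine and was at least 57.9-fold higher (adjusted p = 0.0154). TKTL1, a transketolase-like gene of the X-linked list, reached 63.5 CPM at 500 nM from 0.0427 CPM in untreated cells, and its call (adjusted p = 0.0212) ended in the same 3 cases as that of MAEL. DAZL, a germ cell RNA-binding protein, was at 0.854 and 0.381 CPM without and between 4.55 and 76.2 CPM with azacitidine, yet it did not pass (5.52 ± 2.12, estimate ± SE on the log2 scale; adjusted p = 0.0715). PRAME, an antigen that was already present at 5.29 and 6.34 CPM, lay between 11.3 and 64.97 CPM with azacitidine (2.14 ± 0.66, adjusted p = 0.0262). Without the untreated library or without romidepsin alone, SOHLH1 and PRAME lost their calls.

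**Figure D2:**
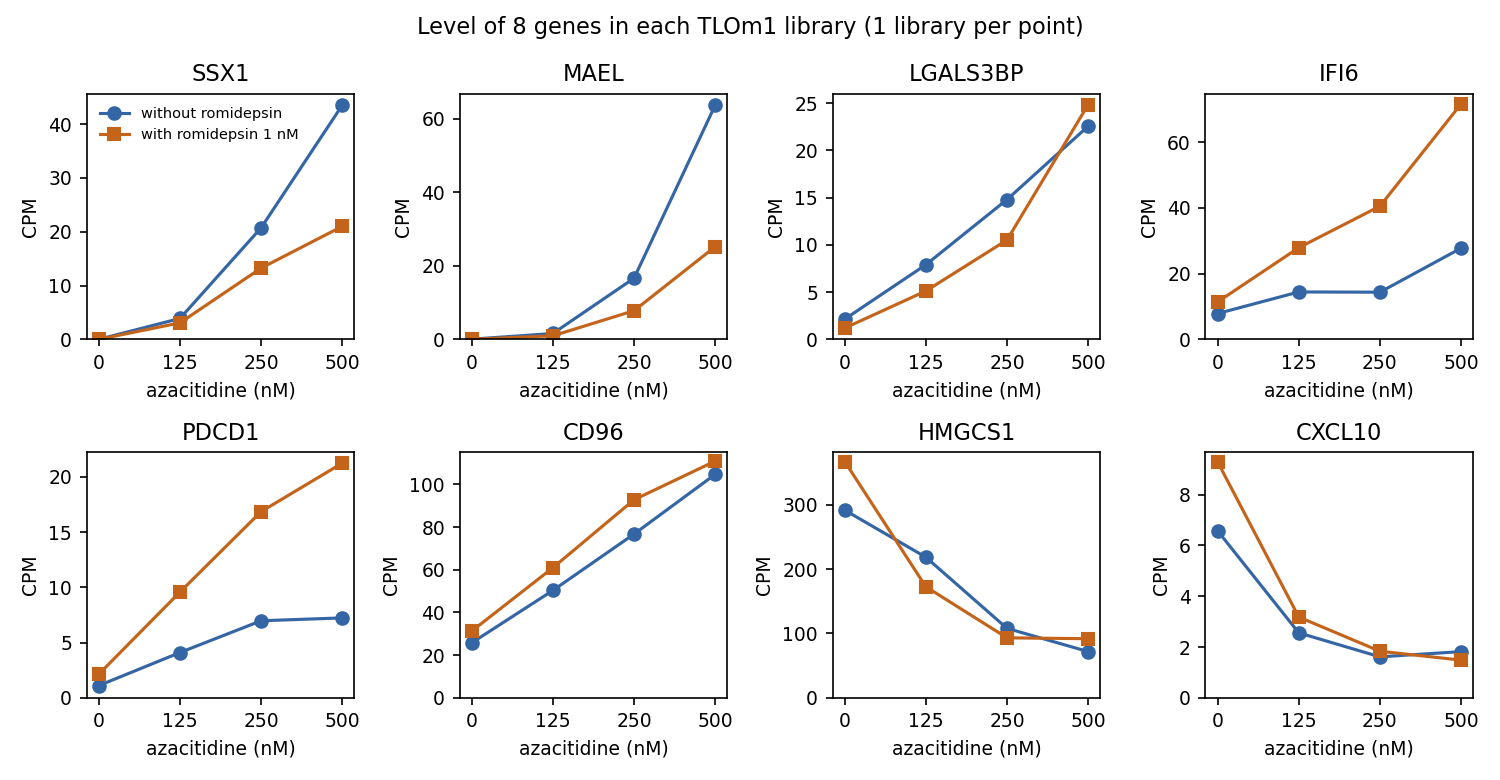
Level in CPM against azacitidine dose in nM for 8 genes, with 1 point per TLOm1 library and separate lines for cells without and with romidepsin. SSX1 and MAEL start at or near 0, LGALS3BP, IFI6, PDCD1 and CD96 rise from a measured level, and HMGCS1 and CXCL10 fall.

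Of 51 interferon-stimulated genes tested, 20 were called higher (39.2%, beside 11.0% of all genes tested) and 0 lower. Their median was 0.56 beside 0.03 over all genes, and 9 had negative estimates. The window of IFI6 is shown because it holds 3 matches, in capitals, to GAAA followed by 2 bases of any kind and GAAA again, searched on both strands as the interferon-stimulated response element, which the ISGF3 factor is known to bind.
IFI6, chr1:27672143-27672442, minus strand: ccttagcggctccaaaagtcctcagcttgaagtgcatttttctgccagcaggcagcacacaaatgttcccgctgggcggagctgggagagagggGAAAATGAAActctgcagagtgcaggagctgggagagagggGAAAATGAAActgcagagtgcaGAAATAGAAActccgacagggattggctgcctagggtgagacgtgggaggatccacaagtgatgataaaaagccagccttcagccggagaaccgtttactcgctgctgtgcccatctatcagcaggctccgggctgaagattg
At least 1 match, overlapping or not, was found in 12 of the 17 genes called higher that had a window in the table. It was found in 28 of the 39 tested members with a window, called or not, so it did not set the genes that rose apart. Of all tested genes with a window, 526 of 12481 held one (4.21%). Windows were at hand for 76.5% of the tested members and 70.1% of all tested genes, too few for a check over the whole sets. The letters describe the window and do not show that a factor was bound.

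IFI6, an interferon-induced mitochondrial protein, stood at 7.85 CPM in untreated cells and 11.4 CPM in romidepsin alone. With azacitidine it was at 14.4, 14.3 and 27.7 CPM, and with romidepsin added at 27.9, 40.5 and 71.6 CPM. Each library with azacitidine was above both without, the combinations were highest, and the change was 1.64 ± 0.31 (adjusted p = 0.00108).

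LGALS3BP, a secreted galectin-binding protein, went from 2.13 and 1.19 CPM without azacitidine to 7.89, 14.8 and 22.6 CPM with it and 5.11, 10.5 and 24.8 CPM in the combinations. It rose at every dose step in both series (3.09 ± 0.54, adjusted p = 6.88e-04). IFITM3, which blocks virus entry, changed by 2.64 ± 0.55 (adjusted p = 0.00247). MX1, an antiviral GTPase, had 4 counts without and 365 with azacitidine (adjusted p = 0.00999), and its level was 0.210% and 0.702% of untreated PF382 without and 1.95% to 43.1% with it. IRF7, the factor that amplifies type I interferon, lay between 4.86 and 7.30 CPM without and between 9.58 and 30.8 CPM with azacitidine (1.60 ± 0.49, adjusted p = 0.0259).

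The group's calls depend on the controls as the antigens' do: 5 of 51 were called higher without the untreated library, 1 without romidepsin alone, 12 without azacitidine 500 nM, 14 without the combination at 500 nM, and 2 in the 8 libraries alone. IFI6, LGALS3BP and IFITM3 lost their calls without romidepsin alone, MX1 also without the untreated library, and IRF7 without either control or either library at 500 nM.

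Of 24 sensors and adaptors that start the interferon response, 3 were called higher (12.5%) and 1 lower (4.2%), shares near the 11.0% and 7.68% of all genes tested. MAVS, the mitochondrial adaptor of RNA sensors, was at 173 and 150 CPM without and between 193 and 275 CPM with azacitidine (0.51 ± 0.10, adjusted p = 0.00179). IRF3, the factor downstream of it, changed by 0.59 ± 0.11 (adjusted p = 0.00136), and IRF5 by 1.68 ± 0.28 (adjusted p = 3.72e-04). These 3 lost their calls without romidepsin alone.

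Antigen presentation genes were called in both directions. In MHC class I and peptide loading, 3 of 24 were called higher (12.5%) and 5 lower (20.8%), with a median of 0.03, and in MHC class II 1 of 17 was higher and none lower. HLA-C, a classical class I chain, lay at 453 and 425 CPM without and between 503 and 645 CPM with azacitidine (0.45 ± 0.12, adjusted p = 0.0139), a call lost without either control library. ERAP2, which trims peptides, fell by 0.60 ± 0.15 (adjusted p = 0.00709), and PSME1, a proteasome activator subunit, fell by 0.32 ± 0.09 (adjusted p = 0.0202) with groups that overlapped. Both calls ended without romidepsin alone, and that of PSME1 also without the untreated library.

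Of 28 genes of sterol synthesis and uptake tested, 16 were called lower (57.1%, beside 7.68% of all genes tested) and 0 higher, with a median of -0.83. Estimates were negative for 25 and positive for 3. Their summed level was 4865 to 5432 CPM without azacitidine and 2485 to 5002 CPM with it, ranges that overlap. HMGCS1, which makes the substrate of the rate-limiting step of cholesterol synthesis, stood at 292 and 367 CPM without azacitidine. It was at 218, 108 and 71.8 CPM with the rising doses alone and at 172, 93.2 and 91.8 CPM with romidepsin. The groups did not overlap, and the change was -1.39 ± 0.47 (adjusted p = 0.0414).

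DHCR7, which makes cholesterol from its last precursor, went from 139 and 121 CPM without to 87.1, 55.3 and 29.7 CPM with azacitidine and 64.8, 37.7 and 35.1 CPM in the combinations. It fell at each dose step (-1.34 ± 0.29, adjusted p = 0.00327). MVD and FDPS, enzymes of the mevalonate steps, changed by -0.91 ± 0.17 (adjusted p = 0.00123) and -1.02 ± 0.24 (adjusted p = 0.00532). MVD passed under all 22 alternatives tried. DHCR7 lost its call without romidepsin alone, FDPS without either control, and HMGCS1 without either control, either library at 250 nM or either at 500 nM. Of the group, 4 were called lower without the untreated library, 1 without romidepsin alone and 9 without the combination at 500 nM, and 1 in the 8 libraries alone.

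Fatty acid synthesis gave 1 of 13 called higher and 2 lower. ACLY and ACACA, which make and carboxylate acetyl-CoA, fell by 0.49 ± 0.11 (adjusted p = 0.00422) and 0.55 ± 0.14 (adjusted p = 0.00793), calls lost without romidepsin alone. SCD, which makes monounsaturated fatty acids, was at 774 and 674 CPM without azacitidine and between 118 and 683 CPM with it, and it did not pass over all doses (adjusted p = 0.156) but was lower at 500 nM (-2.28 ± 0.21, adjusted p = 3.88e-07). ELOVL6, an elongase, went the other way, from 0.470 and 0.286 CPM to between 1.57 and 3.86 CPM (2.83 ± 0.36, adjusted p = 2.63e-05).

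Of 34 checkpoint and costimulatory genes, surface molecules that tune T-cell activation, 6 were called higher (17.6%) and 0 lower. The shares of all genes tested were 11.0% and 7.68%. CD96, a receptor of nectin-like ligands on T cells, was at 25.8 and 31.3 CPM without azacitidine. It reached 50.3, 76.7 and 105 CPM with the doses alone and 61.0, 92.8 and 111 CPM with romidepsin. Both series rose at each step, and the change was 1.54 ± 0.28 (adjusted p = 9.62e-04).

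PDCD1, the inhibitory receptor PD-1, was at 1.11 and 2.14 CPM without azacitidine, at 4.10, 6.98 and 7.24 CPM with it alone and at 9.58, 16.9 and 21.2 CPM in the combinations. Every library with azacitidine was above both without (2.68 ± 0.57, adjusted p = 0.00292). PVRL2, a nectin ligand, rose by 3.78 ± 0.72 (adjusted p = 0.00125). CD274, which encodes PD-L1, stayed at or under 2.51 CPM with groups that overlapped (1.25 ± 0.42, adjusted p = 0.038). Without romidepsin alone none of the 6 checkpoint genes was called; without the untreated library 5 were, and without either library at 500 nM 4.

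Of 43 T-cell receptor and lineage genes, 8 were called higher (18.6%) and 9 lower (20.9%), beside 11.0% and 7.68% of all genes tested. LAT, the adaptor that carries the receptor's signal, went from 34.0 and 30.2 CPM to 66.2, 90.2 and 90.8 CPM with azacitidine and to 82.0, 106 and 98.6 CPM with both drugs. The groups did not overlap, most of the rise was present at the lowest dose, and the call (1.46 ± 0.19, adjusted p = 2.75e-05) held under all 22 alternatives. Outside this list, PTPRCAP, which binds the phosphatase CD45, fell from 65.05 and 66.4 CPM to 8.97 and 13.2 CPM at 500 nM without and with romidepsin (-1.25 ± 0.32, adjusted p = 0.00996), a call lost without either control. BLK, a SRC family kinase counted in the adult T-cell leukemia list below, rose by 2.14 ± 0.32 (adjusted p = 1.60e-04) with groups that overlapped. Without single libraries the T-cell receptor and lineage list had 3 higher and 5 lower (untreated), 2 and 4 (romidepsin alone), 4 and 7 (azacitidine 500 nM), or 5 and 6 (combination at 500 nM).

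The largest falls in this list lie among genes at the share of PF382 reads described above. TCF7, a T-cell factor, was at 3.63 and 5.14 CPM without azacitidine and between 0.201 and 0.436 CPM with it (-3.86 ± 0.28, adjusted p = 3.64e-09), and its levels in the 2 control libraries were 0.153% and 0.217% of PF382. CD3D, a subunit of the receptor complex, was at 0.768 and 0.715 CPM and then at or under 0.154 CPM, and its control levels were 0.233% and 0.217% of PF382. Among the genes called lower, 19 of the 34 that fell at least 4-fold had control levels at or under 0.5% of PF382 (55.9%), beside 1.69% of all genes tested. CD5, a surface molecule called higher (1.94 ± 0.27, adjusted p = 7.76e-05), stood at 0.105% to 0.127% of its HH level without and at 0.334% to 0.608% with azacitidine. Among the genes called higher, 29 of 1961 (1.48%) stayed at or under 2% of HH or H9 in all 6 libraries with azacitidine, beside 1.79% of all genes tested. Without the genes at such PF382 shares 1940 were called higher and 1373 lower, so the totals moved little.

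Of 42 genes tied to adult T-cell leukemia and regulatory T cells, 2 were called higher (4.8%) and 5 lower (11.9%). The shares of all genes tested were 11.0% and 7.68%. The 5 include TCF7 and PRKCB, a protein kinase C whose levels in the control libraries were 0.132% and 0.358% of PF382. IL2RA, the interleukin receptor chain typical of the disease, lay between 246 and 376 CPM without and between 177 and 377 CPM with azacitidine. CADM1 and FOXP3 had estimates of 0.03 ± 0.13 and 0.18 ± 0.28. CCR4 did not pass over all doses (-0.32 ± 0.19, adjusted p = 0.237) and was lower at 500 nM (-0.83 ± 0.12, adjusted p = 8.97e-06). PTHLH, the hormone behind the hypercalcemia of the disease, rose by 1.23 ± 0.37 (adjusted p = 0.023) with groups that overlapped, and lost its call without either control.

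Among cytokines, chemokines and their receptors 8 of 54 were called higher and 5 lower. CXCL10, an interferon-induced chemokine, fell, while none of the 51 interferon-stimulated genes above was called lower. It was at 6.57 and 9.29 CPM without azacitidine, at 2.56, 1.61 and 1.82 CPM with it and at 3.18, 1.83 and 1.49 CPM in the combinations. The groups did not overlap, and the call (-1.91 ± 0.25, adjusted p = 7.39e-05) held under all 22 alternatives. CCL3, a macrophage-attracting chemokine, fell by 1.32 ± 0.26 (adjusted p = 0.00436), a call lost without the untreated library. CXCR3, the receptor of CXCL10, had 1 count without and 96 with azacitidine (adjusted p = 0.00349), a call lost without the untreated library. In the NF-kB list 2 of 21 were called higher and 2 lower: NFKB1 fell by 0.62 ± 0.14 (adjusted p = 0.00389), and RELA rose by 0.37 ± 0.09 (adjusted p = 0.00616). Both calls ended without romidepsin alone, and that of RELA also without the untreated library.

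The DNA methyltransferases that the drug targets did not pass the test over all doses. Of 23 enzymes of DNA methylation and demethylation, 3 were called higher and 2 lower. DNMT1, the methyltransferase that azacitidine traps, was at 535 and 507 CPM without azacitidine and between 488 and 646 CPM with it, groups that overlapped (0.16 ± 0.08, adjusted p = 0.182). It was higher at 125 nM (0.23 ± 0.06, adjusted p = 0.0302) and at 250 nM (0.27 ± 0.06, adjusted p = 0.00464) and not at 500 nM. UHRF1, which guides DNMT1 to new DNA, had the same order, with 0.53 ± 0.10 at 125 nM (adjusted p = 0.00147) and -0.10 ± 0.10 at 500 nM (adjusted p = 0.444).

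IDH2, an enzyme that makes the cofactor of TET demethylases, rose from 3.76 and 4.38 CPM to between 7.37 and 25.4 CPM (1.61 ± 0.28, adjusted p = 7.28e-04). APOBEC3B, a cytidine deaminase, rose by 0.80 ± 0.20 (adjusted p = 0.01). Both calls ended without romidepsin alone. The protein and the activity of these enzymes were not measured. In the list of histone deacetylases and histone methylation enzymes 5 of 37 were called higher and 2 lower, among them HDAC11 (1.31 ± 0.35, adjusted p = 0.0133) and SETDB1, a silencer of retroviral sequences, which fell by 0.33 ± 0.07 (adjusted p = 0.00234), both lost without romidepsin alone.

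Genes that handle the drug gave 2 of 28 higher and 4 lower. UCK2, the kinase that activates azacitidine, was at 88.3 and 100.2 CPM without and between 37.0 and 86.1 CPM with it. All 6 libraries lay below both without, but the gene did not pass over all doses (-0.45 ± 0.16, adjusted p = 0.057), and at 500 nM it was lower (-0.93 ± 0.13, adjusted p = 1.27e-05). SLC29A2, a nucleoside transporter, fell by 0.78 ± 0.21 (adjusted p = 0.0124), a call lost without either control. RRM1, a subunit of the reductase that makes the deoxy form of the drug, was lower at 500 nM (-0.99 ± 0.11, adjusted p = 3.01e-07) and not over all doses (adjusted p = 0.122). CDA, the deaminase that inactivates azacitidine, had 0 counts without and 92 with it, at least 10.3-fold higher (adjusted p = 0.00513), a call lost without romidepsin alone. Of 11 efflux transporters 4 were called higher and 2 lower.

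In the BCL2 family and death receptors 6 of 30 were called higher and 1 lower, and of 25 targets of p53, 5 were higher and 1 lower, beside 11.0% and 7.68% of all genes tested. The lower gene is FAS in both lists. PMAIP1, which encodes the killer protein NOXA, rose by 1.10 ± 0.25 (adjusted p = 0.00463), with groups that overlapped and with 333 CPM at 500 nM with romidepsin beside 67.1 CPM in untreated cells. BIK, another pro-apoptotic member, had 0 counts without and 74 with azacitidine, at least 8.26-fold higher. FAS, a death receptor, fell by 0.79 ± 0.20 (adjusted p = 0.00809). CDKN1A, the p53 target that encodes p21, lay between 148 and 421 CPM with azacitidine around 169 and 172 CPM without (0.30 ± 0.34, adjusted p = 0.553). PMAIP1, BIK and FAS lost their calls without romidepsin alone.

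Cell cycle and DNA replication genes gave 0 of 43 higher and 4 lower over all doses, with a median of -0.15. AURKA, a mitotic kinase, fell by 0.46 ± 0.13 (adjusted p = 0.0134), and POLA1, the polymerase that starts DNA synthesis, by 0.47 ± 0.13 (adjusted p = 0.016). Both lost their calls without romidepsin alone, and POLA1 also without the untreated library. CDK inhibitors gave 2 of 8 higher, CDKN2C (0.59 ± 0.13, adjusted p = 0.00327) and CDKN2B (1.71 ± 0.53, adjusted p = 0.0376), both with groups that overlapped. Under 22 alternatives CDKN2C lost its call in 4 and CDKN2B in 9. In the MYC and ribosome biogenesis list 1 of 29 was higher and 4 lower. In bulk RNA, fewer cells in cycle and less of these transcripts per cell cannot be told apart.

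Some genes of the epithelial and neuronal lists were also called higher, though neither list was silent without azacitidine. Tested keratin and epithelial adhesion genes summed to 337 to 341 CPM without and 452 to 810 CPM with it. Tested neuronal genes summed to 533 to 565 CPM without and 540 to 697 CPM with it. Keratins and epithelial adhesion genes gave 6 of 18 higher (33.3%) and 1 lower, with a median of 2.87 that depends on the prior count. Of the 23 in the tables, 5 had no count without azacitidine and 9 had at least 10. As with the antigens, silent members could pass the low-count filter only through libraries with the drug or other lines, so this share is in part built in. Neuronal genes gave 10 of 54 higher (18.5%) and 2 lower, with a median of 0.99. Of all genes tested, 11.0% were higher and 7.68% lower. KRT8, a keratin of simple epithelia, was at 10.8 and 15.01 CPM without azacitidine, at 92.3, 110.2 and 101 CPM with it and at 118, 156 and 170.1 CPM in the combinations. The groups lay far apart, with most of the rise at the lowest dose (3.26 ± 0.59, adjusted p = 9.17e-04). KRT80, another keratin, had 1 count without and 1147 with azacitidine, a ratio of 384 (95% counting interval 68.8 to 15180). GNAI1, a G protein subunit, and NLRP2, a member of the NOD-like receptor family, had no count in the controls, and their levels were higher by at least 44.9-fold and 48.2-fold. KRT8 and KRT80 lost their calls without romidepsin alone, and NLRP2 without either control or either library at 500 nM.

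Markers of other cell types were few in number, and their shares called are read beside the 11.0% of all genes tested. Silent members could pass the low-count filter only through libraries with the drug or other lines, so these shares are in part built in. Of 15 myeloid and 16 cytotoxic markers in the tables, 6 of each had no count without azacitidine. The sums below cover the tested members. B-cell markers gave 2 of 12 higher and 0 lower, myeloid markers 4 of 9, cytotoxic and natural killer markers 3 of 11, fibroblast markers 2 of 11, and erythroid and megakaryocyte markers 0 of 4. Myeloid markers summed to 5.76 to 8.77 CPM without and 9.35 to 24.3 CPM with azacitidine, and cytotoxic markers to 6.40 to 7.15 CPM without and 4.93 to 23.3 CPM with it. B-cell markers summed to 8.62 to 13.6 CPM without and 7.94 to 27.1 CPM with azacitidine, fibroblast markers to 57.1 to 93.7 CPM and 64.97 to 93.1 CPM, and erythroid markers to 3.80 to 5.95 CPM and 2.60 to 12.5 CPM. TYROBP, an adaptor of myeloid and natural killer cells, had 0 counts without azacitidine and at most 1.89 CPM with it, and its call (adjusted p = 0.0415) ended without any 1 of 5 libraries, both controls among them. Their part in the other results was not tested.

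Hypoxia and glycolysis genes gave 2 of 38 higher and 1 lower: SLC2A1, the main glucose transporter, rose by 1.11 ± 0.23 (adjusted p = 0.00209) and NDRG1, a hypoxia target, by 1.09 ± 0.28 (adjusted p = 0.00972), both lost without romidepsin alone, while PFKM, a kinase of glycolysis, fell by 0.65 ± 0.16 (adjusted p = 0.00681), a call lost without either control. Genes of retroviral Gag origin gave 5 of 23 higher and 0 lower. Imprinted genes gave 1 higher and 1 lower of 23, and metallothioneins 0 of 6 in either direction. Among histone genes, HIST1H2BK, a histone H2B gene, fell from 318 and 574 CPM to between 107 and 205 CPM (-1.58 ± 0.25, adjusted p = 2.78e-04) and kept its call under all 22 alternatives.

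**Figure D3:**
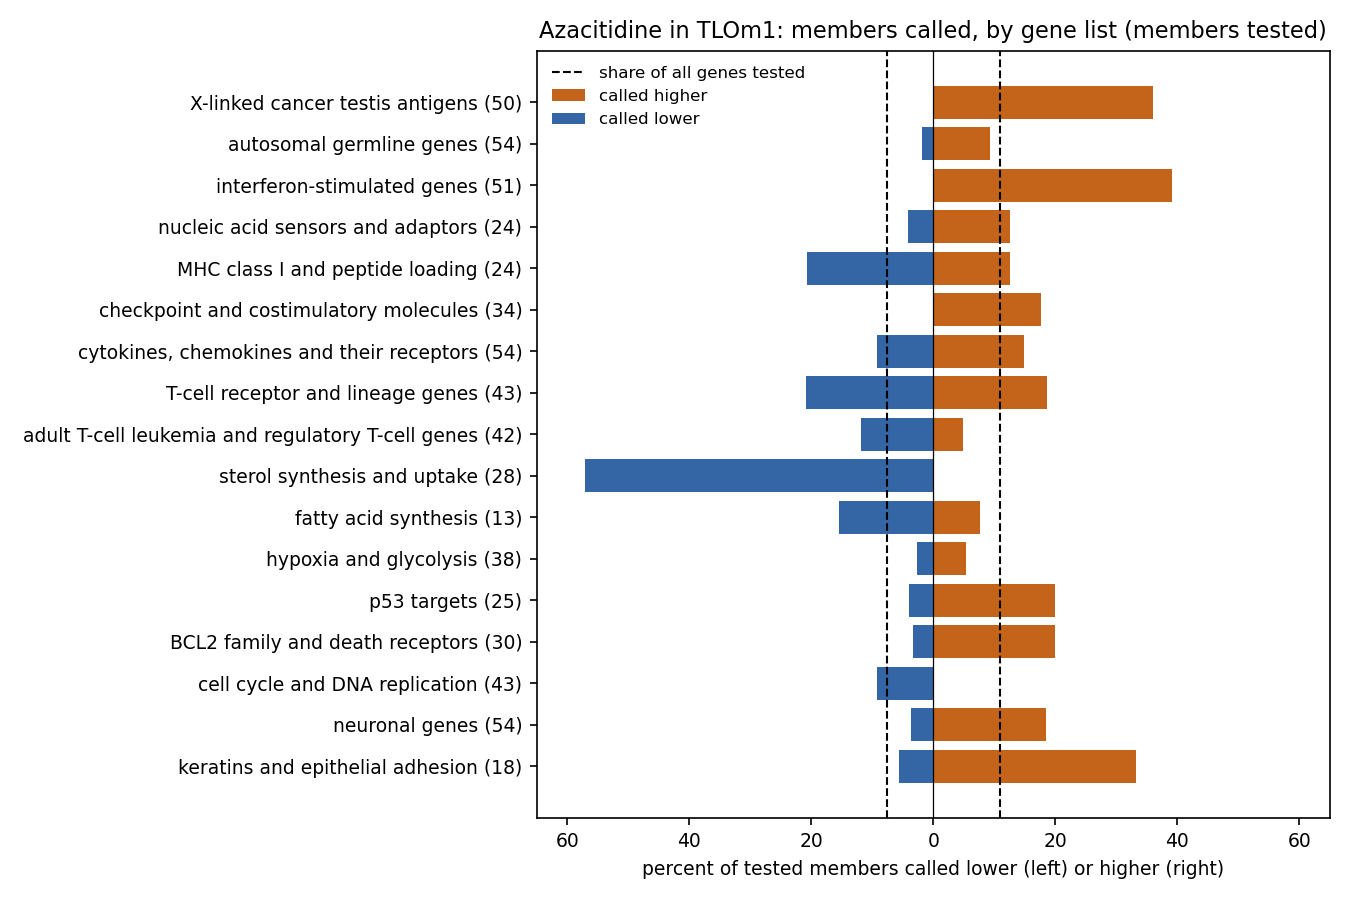
Percent of the tested members of 17 gene lists called higher or lower with azacitidine in TLOm1. Dashed lines mark the percent over all genes tested, 11.0% higher and 7.68% lower, and sterol synthesis has the longest bar of lower calls.

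The calls grew with the dose. At 125 nM 893 genes were higher (5.02%) and 335 lower (1.88%), at 250 nM 2420 (13.6%) and 1633 (9.17%), and at 500 nM 4307 (24.2%) and 3664 (20.6%), each from 2 libraries against the same 2 controls. Among the 6 libraries with azacitidine, 3328 genes rose (18.7%) and 2823 fell (15.9%) per doubling of the dose. Of the 1961 genes called higher, 992 rose at each dose step without and with romidepsin (50.6%), beside 15.8% of all genes tested, and of the 1368 called lower 727 fell at each step (53.1%), beside 15.7%. The slope counts rest most on the combination at 500 nM: without it 1799 genes rose and 1477 fell.

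Calls in single lists by dose are given beside the growth over all genes, and no test compared the lists. X-linked antigens called higher numbered 19, 37 and 48 of 50 at 125, 250 and 500 nM. These 50 are the ones of 118 that passed the filter on low counts, and 36 of the 118 had no count in any TLOm1 library. Silent genes could pass that filter through the libraries where they were high, so these shares are in part built in. Interferon-stimulated genes called higher numbered 6, 21 and 35 of 51. Sterol genes called lower numbered 9, 22 and 23 of 28. Cell cycle genes called lower were 0, 6 and 29 of 43, with 7 called higher at 125 nM, and stress genes of the ATF4 and endoplasmic reticulum list called higher were 1, 5 and 22 of 37, beside 2 higher and 1 lower over all doses.

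SULT1A1, a sulfotransferase with near-identical copies that may share its reads, was at 0.171 and 0.238 CPM without azacitidine, at 7.50, 10.1 and 10.3 CPM with it and at 6.80, 11.8 and 16.1 CPM in the combinations. Most of its rise was present at 125 nM (5.64 ± 0.37 over all doses, adjusted p = 1.18e-09), and its level was 0.308% and 0.430% of untreated PF382 without azacitidine and 12.3% to 29.1% with it. UCHL1, a neuronal ubiquitin hydrolase, had 0 counts without azacitidine and at 125 nM alone, and 0.0403 CPM at 125 nM with romidepsin. It reached 7.77 CPM at 500 nM alone and 14.3 CPM with romidepsin, a slope of 3.93 per doubling (adjusted p = 6.81e-10). MIR210HG, the host transcript of a hypoxia microRNA, fell by 1.36 per doubling among the libraries with azacitidine (adjusted p = 0.0413), a call lost without any 1 of the 6.

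**Figure D4:**
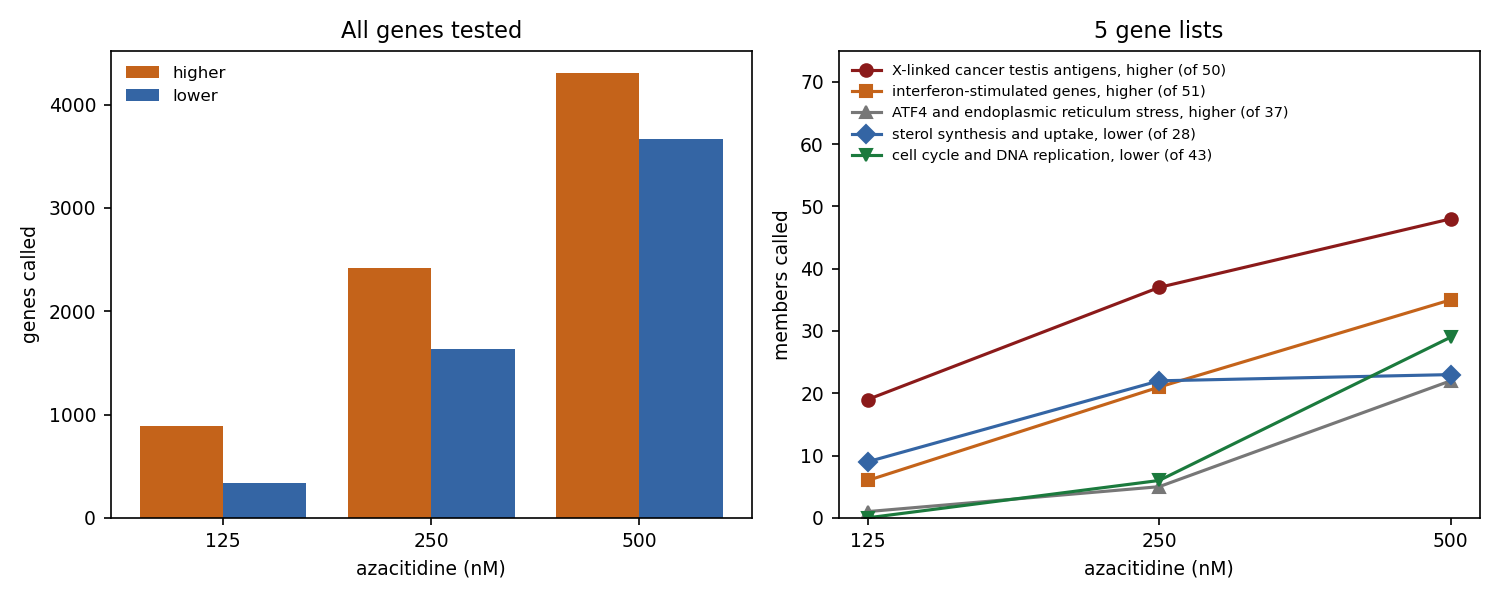
Number of genes called higher and lower at 125, 250 and 500 nM azacitidine over all genes tested, and number of members called in 5 lists of unequal size. All curves increase with the dose, and cell cycle genes reach 29 of 43 lower at 500 nM from 0 at 125 nM.

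No gene passed the test for a different response when romidepsin was present. The test of the azacitidine change with against without romidepsin called 0 genes in edgeR, with 746 (4.19%) at an unadjusted p under 0.05, while DESeq2 called 1 higher and 2 lower. This compares 3 libraries against 1 on each side, and differences between the doses are part of its spread. It does not show that the responses were alike. The median change of the 1961 genes called higher was 0.96 without and 1.30 with romidepsin, and of the 1368 called lower -0.37 and -0.50.

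Part of the response differed from that of the other lines. At 125 and 250 nM, doses given to all 4 lines, 548 genes changed more upward in TLOm1 than in the mean of PF382, HH and H9 (3.08%) and 530 more downward (2.98%). Of the 1961 genes called higher in TLOm1, 399 were among the former (20.3%), and of the 1368 called lower 239 were among the latter (17.5%). Romidepsin doses differ between the lines, with 1.25 nM in PF382 and 1 nM in H9, and with 1 nM alone and 1.25 nM in the combinations in HH. The counts were 42 and 58 without romidepsin alone, 248 and 200 without the untreated library, and 329 and 307 without azacitidine 250 nM, and without the combination at 250 nM 324 were more downward.

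RAB24, a GTPase of autophagy, was at 3.97 and 5.53 CPM without azacitidine, at 11.5, 11.99 and 12.03 CPM with it and at 12.04, 13.1 and 18.4 CPM with both drugs. The groups did not overlap and the level was nearly flat over the doses without romidepsin and highest at 500 nM with it. At 125 and 250 nM it changed by 1.36 ± 0.12 in TLOm1, 0.22 ± 0.10 in PF382, 0.14 ± 0.10 in HH and 0.04 ± 0.10 in H9, a difference of 1.23 ± 0.13 (adjusted p = 8.53e-05).

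ASAH1, the acid ceramidase, changed by 0.90 ± 0.08 in TLOm1 and by 0.15 ± 0.08, 0.12 ± 0.07 and -0.16 ± 0.07 in PF382, HH and H9 (difference 0.86 ± 0.09, adjusted p = 7.11e-05). SH2B3, an adaptor that dampens cytokine signals, changed by 1.62 ± 0.13 in TLOm1 and by 0.24 to 0.43 in the others (difference 1.25 ± 0.14, adjusted p = 8.78e-05). CD96 changed by 1.30 ± 0.25 in TLOm1 and by -0.44 ± 0.24, 0.25 ± 0.23 and -0.52 ± 0.22 in PF382, HH and H9 (difference 1.54 ± 0.28, adjusted p = 0.00699). GLUL, glutamine synthetase, had a difference of 3.63 ± 0.46 (adjusted p = 9.16e-04), with TLOm1 levels at 0.0977% to 0.114% of its HH level without and 0.786% to 1.62% with azacitidine.

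ETV1, a transcription factor, fell in TLOm1 (-1.15 ± 0.21) and rose in PF382 (4.05 ± 0.91), with -0.09 ± 0.21 and 0.01 ± 0.22 in HH and H9 (difference -2.47 ± 0.38, adjusted p = 0.00125). HIST1H2BK fell by 1.53 ± 0.22 in TLOm1 and changed by 0.05 ± 0.29, -0.21 ± 0.26 and -0.46 ± 0.23 in the others, none of which passed (difference -1.32 ± 0.27, adjusted p = 0.0129). ANXA2, a phospholipid-binding protein at 529 to 950.3 CPM, rose less in TLOm1 (0.27 ± 0.08) than in PF382 (1.80 ± 0.09), with 0.39 ± 0.08 in HH and 0.74 ± 0.08 in H9 (difference -0.70 ± 0.09, adjusted p = 2.91e-04).

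**Figure D5:**
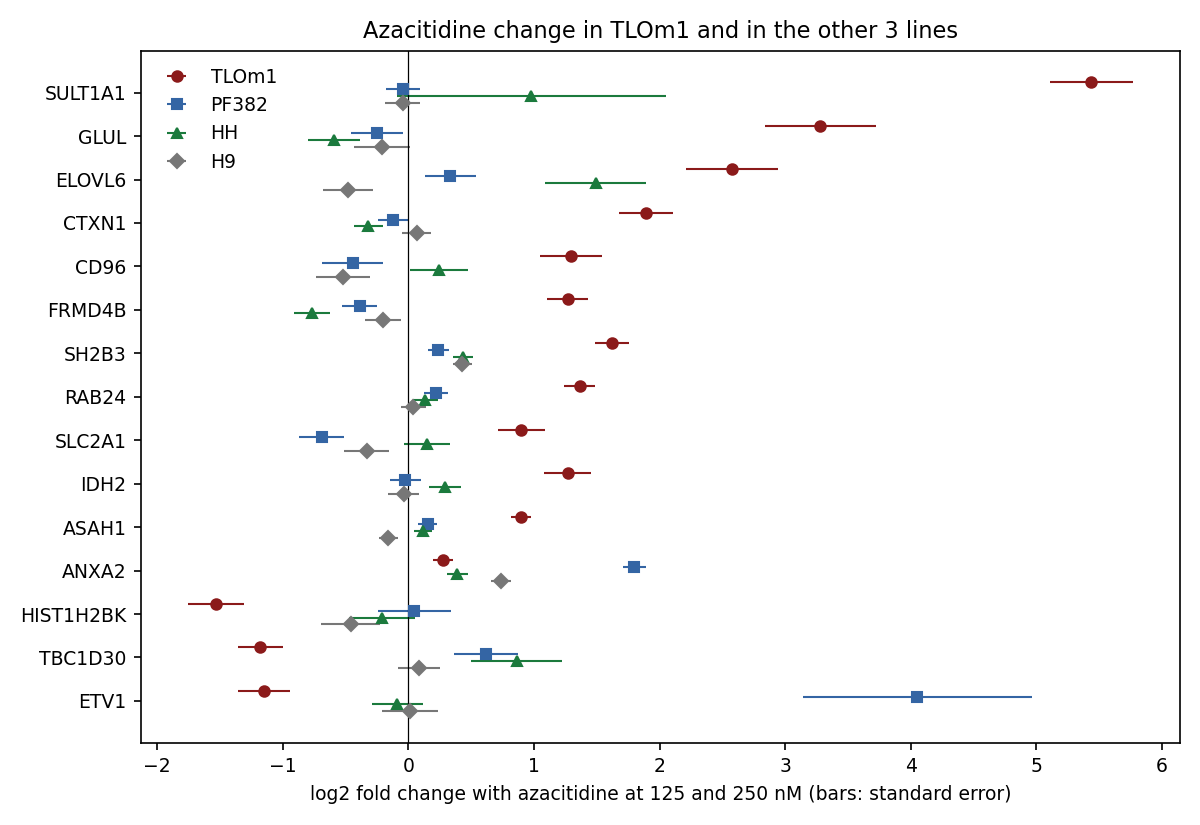
Log2 change with azacitidine at 125 and 250 nM in each of the 4 lines for 15 genes, as estimate ± SE. SULT1A1, GLUL, ELOVL6 and RAB24 stand apart upward in TLOm1, and HIST1H2BK, TBC1D30 and ETV1 downward.

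PF382 was the only other line given 500 nM. Against it over all 3 doses, 431 genes changed more upward in TLOm1 (2.42%) and 403 more downward (2.26%). SULT1A1 differed by 5.76 ± 0.42 (adjusted p = 1.05e-08), SLC2A1 by 1.90 ± 0.30 (adjusted p = 7.71e-04) and NDRG1 by 1.82 ± 0.38 (adjusted p = 0.00747). ANXA2 differed by -1.46 ± 0.17 (adjusted p = 2.20e-05).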

How the data were processed

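Libraries were made from RNeasy-purified RNA with the TruSeq Stranded mRNA kit and read on a NextSeq 500, per the labels' protocols. Poly(A) selection and ribosomal depletion are both mentioned there. The authors deposited 1 table of raw counts for each library, by gene symbol. STAR, DESeq2 and limma and the build GRCh37.p2 are named per the submitters' processing notes; for the read counter, the annotation and strandedness in counting, the entry is not given in the sources used here, so reads of overlapping or antisense genes cannot be told apart.

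Counts of all 32 libraries were fitted with edgeR 4.0.16 (limma 3.58.1, R 4.3.3) with TMM scaling and quasi-likelihood F tests. The filter (minimum count 10, minimum total 15) left 17801 genes. Each line had a mean without and a mean with romidepsin and an azacitidine term (20 residual degrees of freedom). The fit at matched doses took 24 libraries (12 degrees of freedom), and slopes, single doses and the romidepsin comparison had models of their own. Each adjusted p comes from edgeR with Benjamini-Hochberg adjustment over all genes tested. DESeq2 1.42.0 was an alternative, as were other filters, scalings and sample sets. Floors of 3 counts cover counting error only. The chi-square per gene between the 2 closest TLOm1 libraries was 10.9, so none was counted as a duplicate. The test was tried on simulated data.

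Genes were named by rule: the 14 largest called changes in each direction with a mean of at least 2 CPM and groups that do not overlap, up to 4 called members of each list, the 10 and 6 smallest adjusted p against the other lines and PF382, the 6 steepest slopes each way, and a short list of drug targets and markers. Not every gene so selected is discussed, and some results are not reported here. The members and lists were chosen with earlier results of these data known.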

Additional observations from a re-analysis of the deposited data

Results flagged for a closer look

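The genes below are given because their change with azacitidine differed between TLOm1 and other lines by a test of that difference (edgeR, adjusted p under 0.05). Values are differences on the log2 scale, TLOm1 minus the mean of PF382, HH and H9 at 125 and 250 nM, unless PF382 alone is named, and no explanation was tested. Each rests on 1 library per condition.

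Among genes that changed more upward in TLOm1, the difference was 5.14 for SULT1A1, 3.63 for GLUL, 2.13 for ELOVL6, 2.02 for CTXN1, 1.78 for CD5, 1.72 for FRMD4B and 1.54 for CD96. SULT1A1 and GLUL stood at or under 0.430% of PF382 without azacitidine and at 12.3% to 29.1% and 2.1% to 4.33% with it. The difference was 1.32 for AUTS2, 1.31 for NDRG1, 1.25 for SH2B3, 1.23 for RAB24, 1.19 for both IDH2 and SLC2A1, 1.13 for RAB40C and 1.07 for TCTN1. Smaller differences were 0.86 for ASAH1, 0.77 for MRPL41, 0.69 for LAT, 0.67 for CDKN2C, 0.41 for MAVS and 0.31 for IRF3. Against PF382 over 3 doses the difference was 6.37 for BIK, 6.07 for KRT17, 5.19 for C1orf51, 3.07 for PDCD1 and 2.65 for LGALS3BP.

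Among genes that changed more downward, or rose less, the difference was -2.47 for ETV1, -1.84 for APOBEC3B, which rose in all 4 lines, -1.70 for TBC1D30, -1.35 for HIST1H2BJ, -1.32 for HIST1H2BK, -0.70 for ANXA2, -0.38 for both UCK2 and NFKB1 and -0.33 for AURKA. Against PF382 it was -1.15 for SLC29A2. DTX1 (-5.35), TCF7 (-3.94) and CD3D (-3.04), and against PF382 BEX1 (-4.11) and PRKCB (-2.44), had levels at or under 0.376% of PF382 in both TLOm1 libraries without azacitidine. The call of DTX1 was lost without the untreated library or without romidepsin alone.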

How the results depend on the processing

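Most counts of calls turn on the 2 libraries without azacitidine, and each condition has 1 library. Genes called higher and lower with azacitidine numbered 447 and 76 in the 8 TLOm1 libraries alone, 1056 and 662 with no romidepsin term, 327 and 129 in the libraries without romidepsin only, and 987 and 576 in those with romidepsin only. Leaving out 1 library gave 182 to 2446 higher and 75 to 1880 lower. Against the other 3 lines DESeq2 gave 895 and 903, the fit without HH 1026 and 859, the fit without H9 324 and 333, and leaving out 1 library 42 to 662 upward and 58 to 628 downward. Slopes numbered 1799 to 3790 rising and 1477 to 2938 falling. At 125 nM 523 genes were lower when the 500 nM libraries were left out. The test with against without romidepsin called 0 genes without any 1 library, and 1 higher and 2 lower in DESeq2. The other planned settings (no filter, a minimum count of 50, limma-voom, RLE scaling, fits without 1 line) kept the azacitidine counts within 1.5 times, and the cause of the differences was not tested.

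Signs changed in 5 genes that did not pass. IL2RA was at 0.0095 in libraries without romidepsin (-0.33 to 0.0095 with 1 library left out), CADM1 at -0.12 (-0.12 to 0.19, with -0.01 and -0.02 without either library at 500 nM), CDKN1A at -0.10 (-0.10 to 0.77) and MIR210HG at -0.22 (-0.22 to 1.95). FOXP3 was at -0.059 in libraries with romidepsin (-0.084 to 0.46 with 1 library left out).

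No paired analysis was possible because the labels give no replicate numbers that join libraries, and each condition has 1 library. Total counts differed by less than 1.5 times among the TLOm1 libraries, so depth limits mainly genes near the floor of 3 counts.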
